A study of Brassica napus and Camelina sativa and Thlaspi arvense with 24 samples.

Results

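Cotyledons of 3 Brassicaceae oilseeds were compared: field pennycress (Thlaspi arvense), Camelina sativa line DH55 and Brassica napus line DH12075. The cotyledon libraries of these lines were taken by their labels, 3 biological replicates per species, which gave 9 of the 24 libraries of the series. No treatment was named, and plants were grown in a growth chamber for up to 2 weeks after germination, and RNA came from fully expanded cotyledons. The pennycress plants came from a line collected in the field, and DH55 and DH12075 each represent their species by 1 line. The other libraries, first true leaves of the same lines and both tissues of B. napus N99, were used only where named.

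Cotyledons are the seed leaves. They hold the oil and protein reserves of the embryo, and after emergence they turn green and become the first photosynthetic organs of the seedling. The genomes of the species differ in ploidy: pennycress is a diploid, C. sativa a hexaploid and B. napus an allotetraploid formed by Brassica rapa and Brassica oleracea. One gene of Arabidopsis thaliana, the model species of the family, therefore often has a single counterpart in pennycress and several in the other crops.

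The values were TPM, transcript abundances corrected for gene length and scaled so that all genes of a library sum to 1000000. Each species was quantified against its own transcriptome, so TPM set side by side across species were normalised in separate tables. TPM retain no read number, so the depth of each library is unknown, and the spread over replicates is the only error given. The tables listed 26332 genes in pennycress, 88876 in C. sativa and 123329 in B. napus.

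The question first asked was how many genes were expressed in cotyledons and how evenly. At 1 TPM or more, pennycress expressed the fewest genes but the largest share of its gene list. The pennycress libraries had 14316, 14297 and 14304 genes. The C. sativa libraries had 42436, 41886 and 41798 genes at this level, and the B. napus libraries had 40198, 39541 and 40985. As a share of the genes listed, this was 54.3 ± 0.036% in pennycress, 47.3 ± 0.39% in C. sativa and 32.6 ± 0.59% in B. napus (SD, n = 3 each). No library of one species fell within the range of another for either measure. Pennycress lists 26332 genes in all, so its numbers could not reach those of the other species. The order of the shares depended on the threshold: above 0 TPM it was 67.7 ± 0.53% in pennycress, 69.3 ± 0.60% in C. sativa and 51.4 ± 0.66% in B. napus, and at 0.1 TPM 63.5 ± 0.087%, 63.8 ± 0.29% and 46.0 ± 0.32% (SD, n = 3 each), where pennycress and C. sativa overlapped. With a threshold of 0.1 TPM the numbers of C. sativa and B. napus overlapped, at 56660 ± 260 and 56686 ± 391 genes (SD, n = 3 each). At 10 TPM or more, 9333 ± 37 genes remained in pennycress, 12726 ± 212 in C. sativa and 12209 ± 482 in B. napus (SD, n = 3 each).

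The evenness of a transcriptome was measured with Pielou's index, which is 1 when all expressed genes have the same TPM and falls as fewer genes hold more of it. Pennycress had the highest evenness over genes above 0, at 0.811, 0.815 and 0.813. The C. sativa libraries reached 0.796, 0.790 and 0.788, and the B. napus libraries 0.776, 0.767 and 0.783. The species did not overlap in this measure. The index is scaled by the logarithm of the number of genes above 0. That number averaged 17819 in pennycress, 61564 in C. sativa and 63370 in B. napus. The part of these numbers in the order of the species was not tested. The order was the same for 1 minus the Gini coefficient, at 0.185 ± 0.00093, 0.151 ± 0.0024 and 0.135 ± 0.0066 for pennycress, C. sativa and B. napus (SD, n = 3 each).

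**Figure D1:**
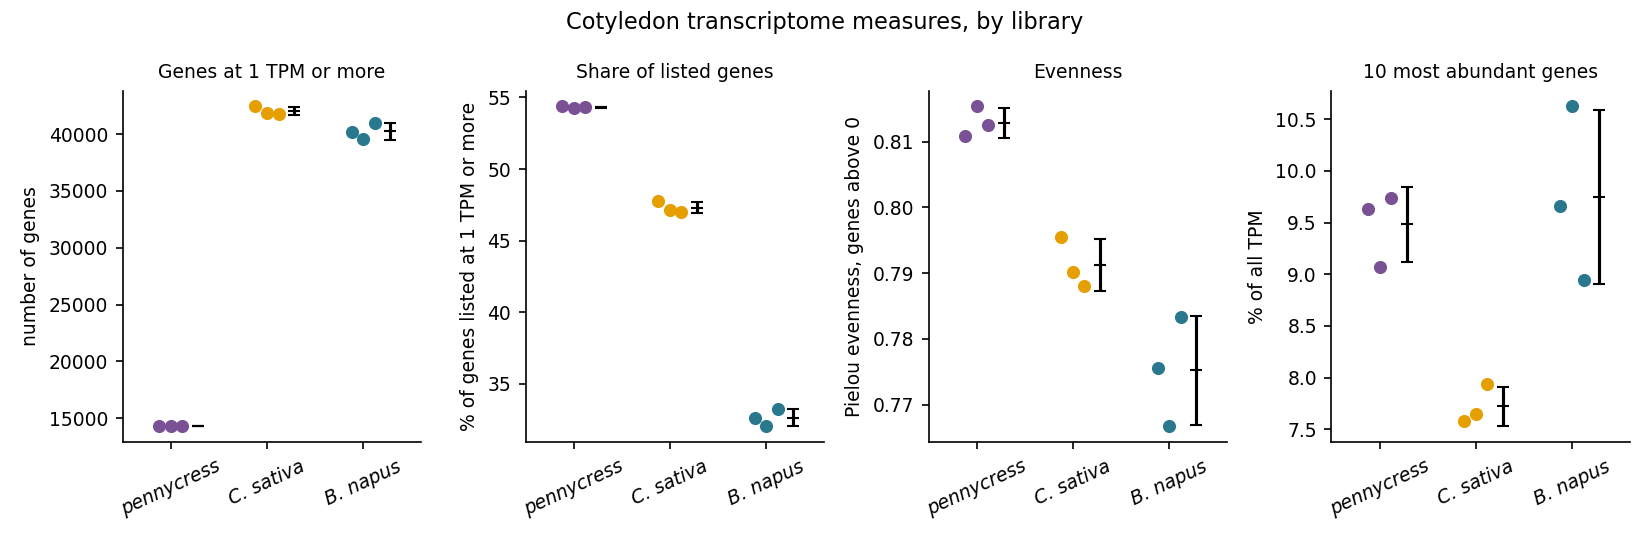
Cotyledon measures by library for pennycress, C. sativa and B. napus: number of genes at 1 TPM or more, that number as % of the genes listed, Pielou evenness, and % of all TPM held by the 10 most abundant genes. Points are libraries and black bars are the mean ± SD of 3 libraries; axes do not start at 0. Pennycress lies at 14297 to 14316 genes, far below the other species, but highest in share at this threshold and in evenness.

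The 10 most abundant genes held 9.64%, 9.07% and 9.74% of all TPM in pennycress cotyledons. They held 7.58%, 7.65% and 7.94% in C. sativa and 9.66%, 10.6% and 8.95% in B. napus. C. sativa lay below the other species in every library, while pennycress and B. napus overlapped. The 100 most abundant genes held 29.0 ± 0.65% in pennycress, 24.1 ± 0.79% in C. sativa and 25.8 ± 1.3% in B. napus (SD, n = 3 each), so at this rank pennycress was highest. When the most abundant 1% of the genes at 1 TPM or more were taken, the order turned round: 33.2 ± 0.77% in pennycress, 41.5 ± 1.1% in C. sativa and 43.3 ± 1.3% in B. napus (SD, n = 3 each). This 1% covers fewer genes in pennycress than in the other species, so these shares are not of equal numbers of genes. It took 490 ± 24 genes to hold 50% of TPM in pennycress, 862 ± 79 in C. sativa and 688 ± 86 in B. napus (SD, n = 3 each). The single most abundant ID was CAH2053644 in pennycress, with 16369, 15014 and 20240 TPM. In C. sativa it was Csa05g079910, with 15899, 15201 and 14019 TPM, and in B. napus BnaC04g049370.3DH, which averaged 20415 ± 1643 TPM (SD, n = 3). The tables do not pair these IDs with gene names.

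**Figure D2:**
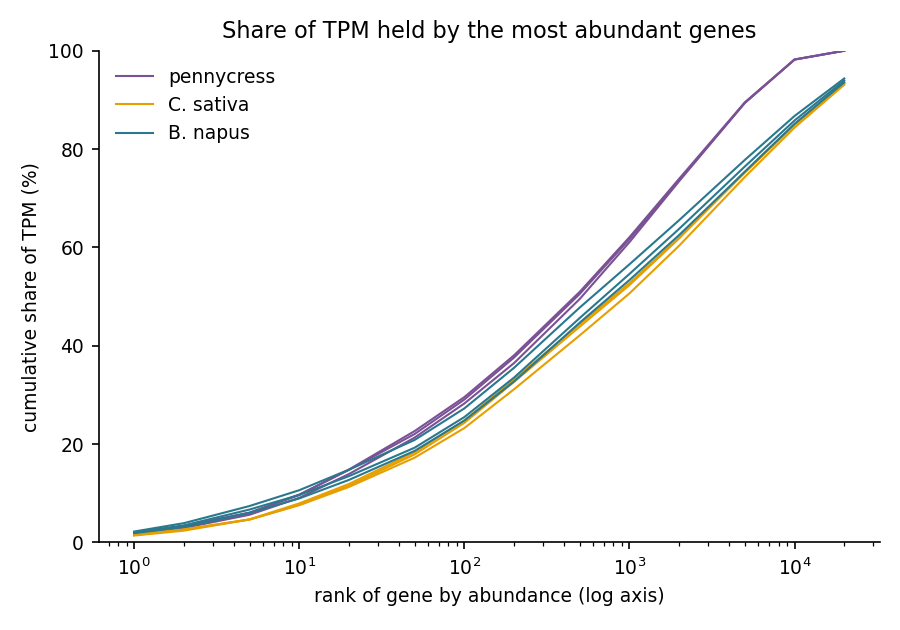
Cumulative share of TPM (%) against the rank of genes by abundance (log axis), 1 line per cotyledon library. The pennycress lines separate from the others beyond the first ranks and reach 29.0% on average at rank 100, against 24.1% in C. sativa and 25.8% in B. napus.

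These measures were compared with an exact permutation test over the 9 libraries (F statistic), whose smallest possible p is 0.003571. The numbers of genes, their share of the list and the evenness each gave exact p = 0.003571, or 0.005952 after Benjamini-Hochberg adjustment over the 5 measures tested. For the numbers, this test cannot tell expression in pennycress from the length of its list. That list has 26332 genes, fewer than the 39541 at 1 TPM or more in the lowest B. napus library. The share at a fixed TPM threshold also depends on list length, because the same total of 1000000 TPM is spread over lists of different length. Evenness is likewise taken over different numbers of genes. The share of the 10 most abundant genes gave exact p = 0.02857, and the same value after adjustment. Between a pair of species, 3 libraries against 3 cannot go below an exact two-sided p of 0.1, which was the value for each pair that did not overlap. For the share of the 10 most abundant genes, pennycress against B. napus gave an exact p of 0.8 for a difference of -0.263 percentage points. Without B. napus replicate 2, pennycress and not B. napus had the highest mean share, and with N99 as the B. napus line the exact p was 0.2179.

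The second question was how expression differed gene by gene. The A. thaliana counterparts came from the ortholog pairing of the study, of which the first 1938 genes, all from the upper arm of chromosome 1 in A. thaliana, were at hand. Of these, 983 could be paired with gene IDs in all 3 species, through 983 pennycress, 2636 C. sativa and 2216 B. napus IDs, and the TPM of the paired copies were summed. Pairs with more than 4 copies were not searched, and 598 genes could be paired with no set of B. napus IDs, so the 983 lean towards genes with few B. napus copies. The orthologs held 3.96% to 4.51% of TPM in pennycress cotyledons, 2.88% to 2.94% in C. sativa and 2.77% to 2.81% in B. napus. The median ortholog had 13.2 to 13.6 TPM in pennycress, 6.77 to 7.27 TPM in C. sativa and 5.52 to 6.28 TPM in B. napus.

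Over these 983 orthologs, evenness was 0.795 ± 0.021 in pennycress, 0.784 ± 0.0038 in C. sativa and 0.747 ± 0.0098 in B. napus (SD, n = 3 each; exact permutation p = 0.025, adjusted 0.02857). Pennycress and C. sativa overlapped here, and both lay above B. napus. Pairs of libraries within a species correlated across orthologs with a median r of 0.983 in pennycress, 0.990 in C. sativa and 0.991 in B. napus. Between species the median r was 0.554 for pennycress with B. napus, 0.773 for C. sativa with B. napus and 0.663 for pennycress with C. sativa. These correlations are across genes, which are not independent replicates, and carry no test.

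Most orthologs differed between species beyond replicate error. Each pair of species was compared by limma on log2(TPM + 1) with Benjamini-Hochberg adjustment at 0.05, and a fold change on this scale understates that of low genes. Between pennycress and B. napus 851 of 983 orthologs passed (86.6%), 576 higher (58.6%) and 275 lower (28%) in pennycress. Between C. sativa and B. napus 749 passed (76.2%), 446 higher (45.4%) and 303 lower (30.8%) in C. sativa. Between pennycress and C. sativa 808 passed (82.2%), 524 higher (53.3%) and 284 lower (28.9%) in pennycress. Replicates of the species did not overlap for 865 orthologs between pennycress and B. napus (88%), 780 between C. sativa and B. napus (79.3%) and 817 between pennycress and C. sativa (83.1%). A difference of at least 1 on the log2 scale as well was met by 604 (61.4%), 366 (37.2%) and 507 (51.6%) of the orthologs in these comparisons, in the same order.

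The split into higher and lower calls in pennycress changed with the scaling used. The median log2 fold change over the 983 orthologs was 0.75 for pennycress against B. napus, 0.19 for C. sativa against B. napus and 0.47 for pennycress against C. sativa, and every fold change below should be read beside its median. When each library was rescaled to the same total over the orthologs, the split was 468 higher and 362 lower for pennycress against B. napus, and 401 and 374 for pennycress against C. sativa. With quantile normalisation the splits were 403 and 400, and 394 and 380. With the median ortholog set equal, they turned to 373 higher and 436 lower, and 325 and 458. Quantile normalisation and an equal median ortholog bring the libraries to a common centre by construction, so their splits cannot test the excess. For C. sativa against B. napus the splits were 434 and 314, 364 and 389, and 389 and 362 under the same settings. Calls in the same direction under all 4 scalings numbered 644 for pennycress against B. napus (65.5%; 371 higher, 273 lower), 660 for C. sativa against B. napus (67.1%; 360 higher, 300 lower) and 594 for pennycress against C. sativa (60.4%; 325 higher, 269 lower). These are called scale-independent below. The rescalings moved the median fold change of pennycress down against both other species, so the label adds little to lower calls in pennycress. Of these, 273 of 275 were kept against B. napus and 269 of 284 against C. sativa. Of the higher calls, 371 of 576 and 325 of 524 were kept.

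**Figure D3:**
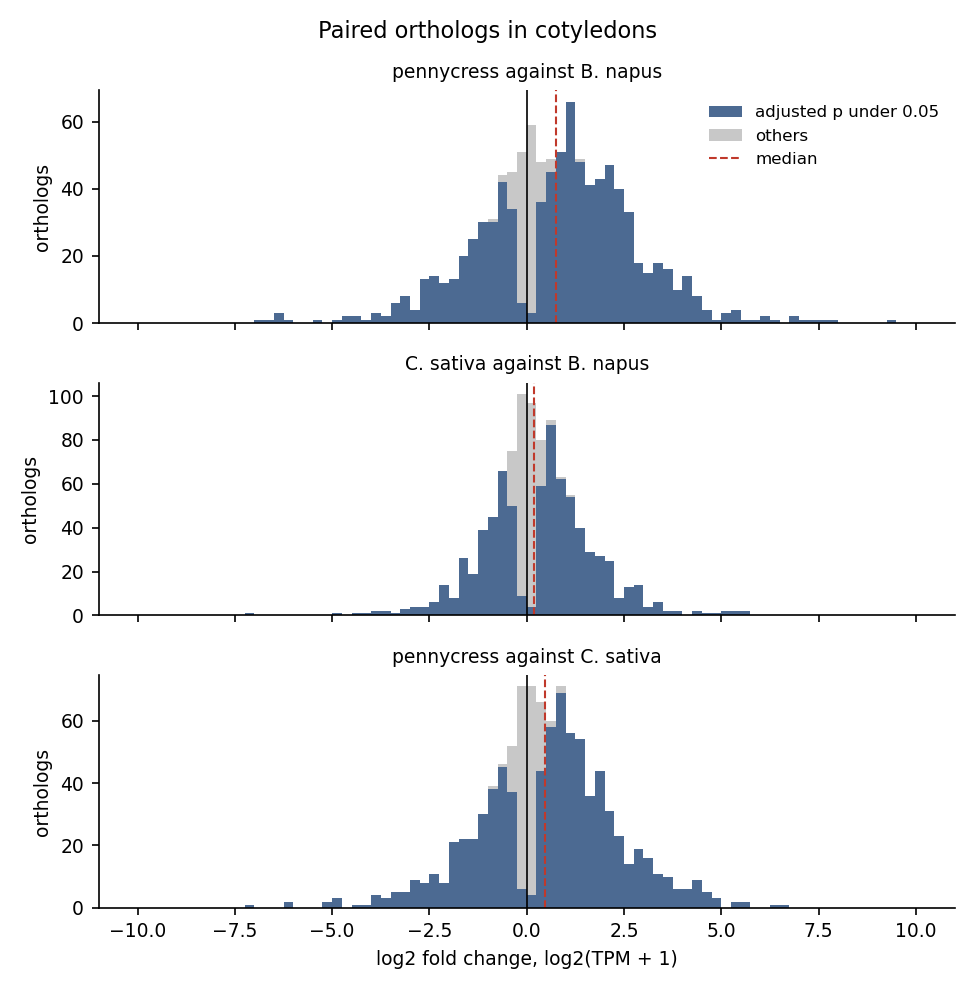
Number of orthologs by log2 fold change on the log2(TPM + 1) scale, for each pair of species, with orthologs at an adjusted p under 0.05 in blue and others in grey. The dashed line is the median of the 983 orthologs, at 0.75, 0.19 and 0.47 from top to bottom; the distribution for C. sativa against B. napus is the narrowest, with a median absolute fold change of 0.72 against 1.32 and 1.04 on the log2 scale.

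The fold changes also varied with the number of paired copies summed. A copy at 0 in every library of a species could not be paired, so 1 paired copy can stand for more genes. These groups therefore depend partly on expression in the same data, and their medians are given as description. For pennycress against C. sativa the median log2 fold change was 1.996 over the 63 orthologs with 1 paired C. sativa copy, 0.81 over 187 with 2 copies and 0.31 over 733 with 3. For pennycress against B. napus it was 1.83 over the 157 orthologs with 1 paired B. napus copy, 0.73 over 555 with 2, 0.66 over 135 with 3 and 0.07 over 136 with 4. When the most expressed copy alone was used, the medians were 1.196 for pennycress against B. napus and 1.26 for pennycress against C. sativa. The most expressed of 3 C. sativa copies held a median of 45.7% of the summed TPM over 648 orthologs with at least 1 TPM, and the most expressed of 2 B. napus copies held 61.0% over 437. The same copy was highest in all 3 libraries for 485 of those C. sativa orthologs and for 382 of those B. napus orthologs.

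All 3 pennycress libraries lay above the other 6 for 459 orthologs (46.7%) and below them for 194 (19.7%). C. sativa lay above the other 6 libraries for 148 (15.1%) and below for 187 (19%), and B. napus above for 159 (16.2%) and below for 358 (36.4%). With the median ortholog set equal, pennycress lay above for 246 and below for 333, C. sativa above for 226 and below for 148, and B. napus above for 272 and below for 259.

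In the light list, genes of the light reactions of photosynthesis, 5 of 11 were paired in all 3 species and compared. PSBP1, PSAO, FD1, LHCB6 and PETE2 were paired in pennycress and C. sativa but not in B. napus. They were left out of pennycress against C. sativa as well. All 5 genes compared were lower in pennycress than in B. napus, also with N99, and 4 were lower than in C. sativa. The calls against B. napus held under all 4 scalings, as did 273 of all 275 lower calls. Of all orthologs 28% were lower in pennycress than in B. napus, and the median log2 fold change was -3.05 over the 5 genes, against 0.75 over all orthologs. In these bulk samples, fewer cells of a type and less RNA per cell cannot be told apart, and the part of cell makeup in any difference given here was not tested. PSAK (AT1G30380), a subunit of photosystem I, had 291, 370 and 319 TPM in pennycress. It had 2808, 3224 and 2648 TPM in C. sativa and 2599, 2772 and 2704 TPM in B. napus. The pennycress libraries lay far below all others, while C. sativa and B. napus overlapped (log2 fold change 0.10 ± 0.16 SE, limma adjusted p = 0.591); the fold change of pennycress was -3.05 ± 0.16 (SE) against B. napus. PSB27 (AT1G03600), which assists assembly and repair of photosystem II, had 64.3, 72.8 and 65.3 TPM in pennycress, against 505, 545 and 374 TPM in C. sativa and 711, 761 and 735 TPM in B. napus. LHCA6, a light-harvesting protein of photosystem I, averaged 31.4 TPM in pennycress, 116 TPM in C. sativa and 254 TPM in B. napus. LFNR2 (AT1G20020), the leaf ferredoxin-NADP reductase at the end of the electron chain, had 181, 255 and 196 TPM in pennycress, 405, 370 and 409 TPM in C. sativa and 1033, 1099 and 917 TPM in B. napus, with no overlap between any species. VDE, the violaxanthin de-epoxidase of photoprotection, was lower than in B. napus both in pennycress (log2 fold change -0.9996) and in C. sativa (-0.88). Between C. sativa and B. napus 4 of the 5 genes were lower in C. sativa, 3 of them scale-independently (30.8% of all orthologs were lower). With N99 as the B. napus line 2 were lower, and LHCA6 (0.18) and PSB27 (-0.37) did not pass. All comparisons with N99 include its replicate 2, where the paired orthologs held 1.86% of TPM, against 2.81% and 2.82% in replicates 1 and 3. PSB27 had 801, 476 and 580 TPM in N99, and LHCA6 had 196, 90.7 and 58.6 TPM. The part of replicate 2 in the fold changes and missed thresholds against N99 was not tested.

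Pigment genes followed another order, with C. sativa highest for several. Of 5 pigment genes compared, all 5 were lower in pennycress than in C. sativa (28.9% of all orthologs were; median log2 fold change -1.03, against 0.47 over all orthologs), although CHLD and the carotenoid isomerase ZISO were higher in pennycress, by 0.79 and 0.64 on the log2 scale, when the most expressed copy alone was used. PORC, a protochlorophyllide oxidoreductase of chlorophyll synthesis, had 80.8, 110 and 95.9 TPM in pennycress, 404, 378 and 308 TPM in C. sativa and 102, 105 and 95.9 TPM in B. napus. Pennycress and B. napus overlapped for PORC, and C. sativa stood above both. CLH1 (AT1G19670), a chlorophyllase, had 20.2, 10.4 and 26.4 TPM in pennycress, 185, 169 and 241 TPM in C. sativa and 4.62, 3.21 and 3.16 TPM in B. napus. It was among the 4 largest increases of C. sativa over B. napus, at a log2 fold change of 5.42 ± 0.29 (SE, limma adjusted p = 1.2e-07), and of 4.22 over N99. CHLD, a subunit of the magnesium chelatase that commits tetrapyrroles to chlorophyll, was lower than in B. napus in both pennycress (-1.11) and C. sativa (-0.48) on the log2 scale. Among the plastid genes, RPL4 of the plastid ribosome and the sigma factor SIG2 were lower in pennycress than in B. napus (log2 fold changes -1.58 and -0.64), and the translocase SECA2 was higher (1.80); with the most expressed copy alone the value of SIG2 was 0.92.

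In the carbon list, 5 of 10 genes were paired in all 3 species and compared. The starch synthase SS3 had 8.22, 7.77 and 10.7 TPM in pennycress, 36.3, 31.8 and 31.6 TPM in C. sativa and 19.1, 20.2 and 20.3 TPM in B. napus, so that no species overlapped. The isoamylase-type subunit ISA2 was higher in C. sativa than in both pennycress and B. napus, with a log2 fold change of 1.39 over B. napus, but against N99 the value was 0.31 and did not pass. The vacuolar invertase VI2 was lower in C. sativa than in B. napus DH12075, at 46.8, 67.5 and 71.8 TPM against 136, 132 and 178 TPM in B. napus, and pennycress had 179, 181 and 217 TPM. N99 had 72.7, 46.5 and 65.7 TPM of VI2, and C. sativa against N99 gave 0.0096 on the log2 scale, so that this difference did not hold across the B. napus lines. SUC2, the phloem sucrose transporter, was higher in pennycress than in B. napus at 1.02 on the log2 scale, but the value was -0.15 with the median ortholog set equal and 0.61, not past the threshold, against N99.

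Genes of glucosinolate synthesis, the sulphur-rich defence compounds of the family, did not all follow the same order of species. UGT74B1 (AT1G24100), the glucosyltransferase of the core pathway, had 42.6, 68.1 and 53.1 TPM in pennycress, 1.67, 1.55 and 1.23 TPM in C. sativa and 36.7, 36.8 and 50.9 TPM in B. napus. C. sativa lay below every other library, with a log2 fold change of -4.08 ± 0.18 against B. napus (SE, limma adjusted p = 5.26e-08), while pennycress and B. napus DH12075 overlapped. N99 had 30.0, 12.1 and 28.4 TPM of UGT74B1, and pennycress was higher than N99 by 1.26 on the log2 scale (limma adjusted p = 0.00142). SOT17, a sulphotransferase of the same core pathway, was at 0.248, 0.340 and 0.367 TPM in C. sativa, against 4.57, 4.05 and 9.499 TPM in B. napus, and pennycress had 1.90, 9.43 and 3.80 TPM. FMOGS-OX5, which oxygenates aliphatic glucosinolates, showed a different order, with 10.7, 11.4 and 10.4 TPM in pennycress, 89.7, 96.6 and 98.5 TPM in C. sativa and 71.6, 74.1 and 63.9 TPM in B. napus. CYP79F1, of the same list, was at 0 in all 6 C. sativa libraries and paired in pennycress and B. napus, so it was not compared. Over the 4 genes compared of 6, 3 were lower and 1, FMOGS-OX5, higher in C. sativa than in B. napus (median log2 fold change -1.54, against 0.19 over all orthologs). Of all orthologs 30.8% were lower and 45.4% higher. The call of FMOGS-OX5 (0.44) was not kept under all 4 scalings, nor with N99 (0.41). OBP2, a transcription factor of the pathway, was among those lower (-0.74), but was higher by 0.70 when N99 stood for B. napus.

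**Figure D4:**
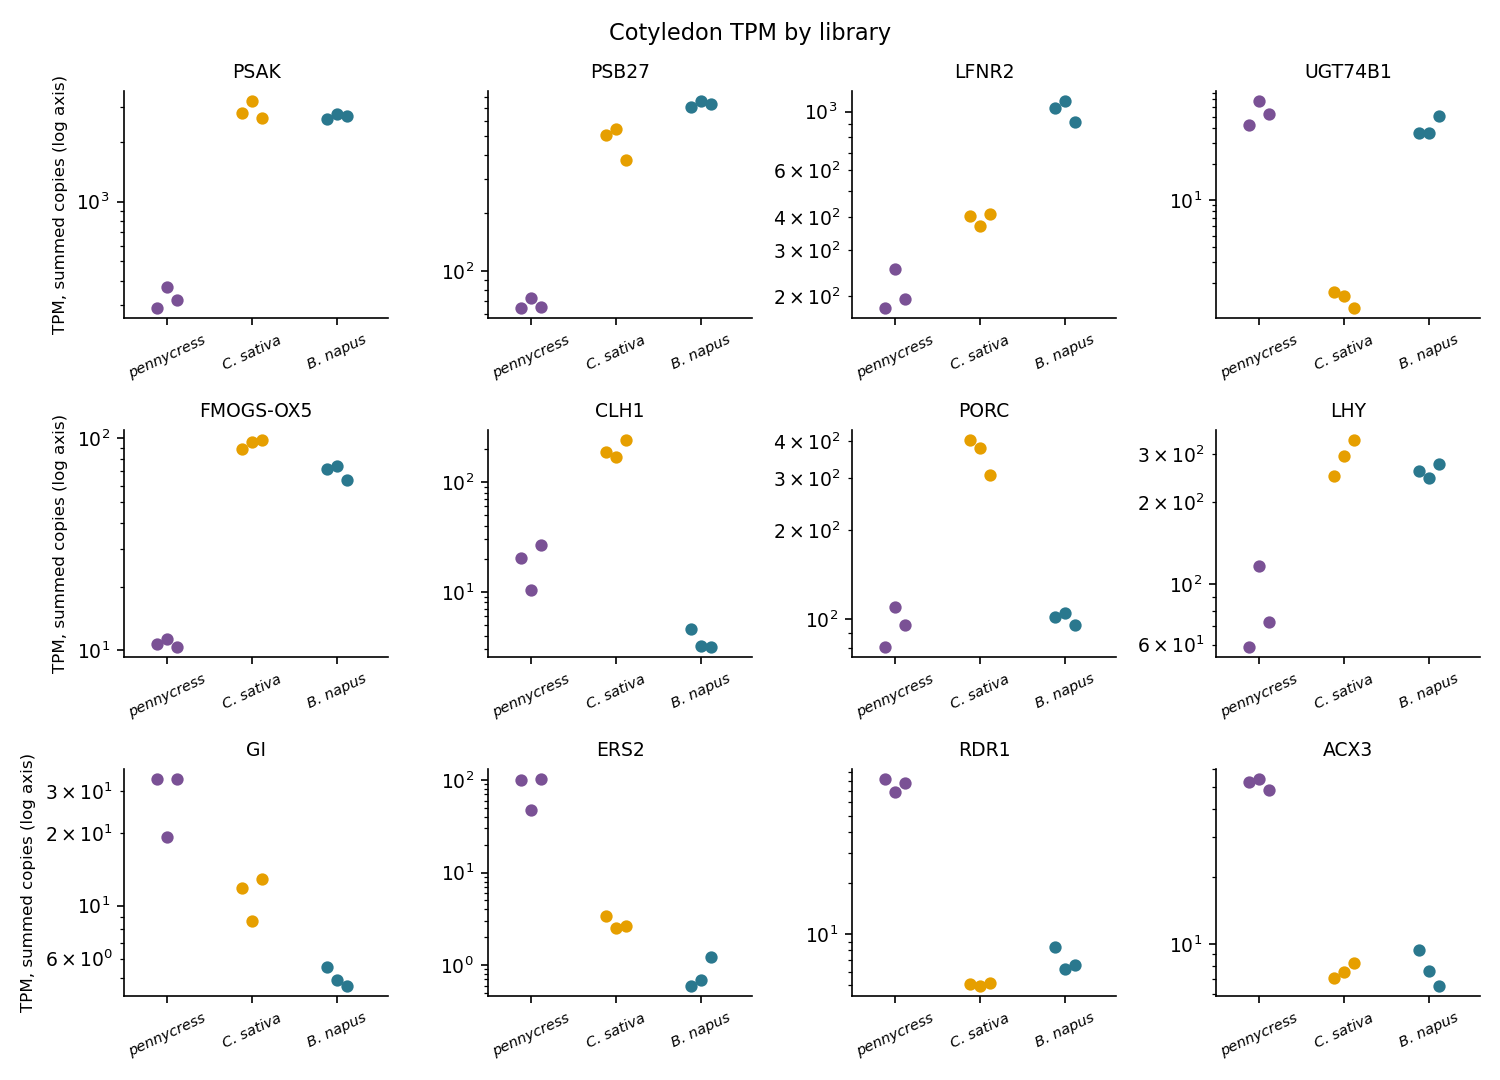
TPM of 12 orthologs in each cotyledon library, copies summed, on a log axis that differs between panels; points are the 3 libraries of pennycress, C. sativa and B. napus. PSAK is low in pennycress (291 to 370 TPM), UGT74B1 low in C. sativa (1.23 to 1.67 TPM), and ERS2 and RDR1 high in pennycress.

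Clock and light-signalling genes differed in opposite directions. LHY (AT1G01060), a morning transcription factor of the circadian clock, had 58.8, 117 and 72.5 TPM in pennycress, against 248, 296 and 338 TPM in C. sativa and 261, 245 and 276 TPM in B. napus. The evening gene GI (AT1G22770) had 33.8, 19.3 and 33.7 TPM in pennycress, 11.8, 8.65 and 12.96 TPM in C. sativa and 5.52, 4.88 and 4.62 TPM in B. napus. Pennycress was thus lower for LHY (log2 fold change -1.70 ± 0.22 SE) and higher for GI (2.28 ± 0.22 SE) than B. napus DH12075. Against N99 the value for GI was 0.92. N99 cotyledons had 5.27, 7.02 and 13.7 TPM of LHY, and pennycress against N99 gave 3.15 on the log2 scale, so the direction for LHY did not hold across the B. napus lines. RVE3, a clock-related transcription factor, turned likewise, at -0.83 against DH12075 and 2.12 against N99. The methods of the study give no time of day of harvest, and its part in the differences of clock genes was not tested. BBX24, a B-box protein of light signalling, was higher than in B. napus in pennycress (2.30) and in C. sativa (1.85), both scale-independently.

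Among hormone genes, 6 of 15 were paired in all 3 species and compared. None of them passed the test as lower in pennycress or in C. sativa than in B. napus. Over all orthologs 28% were lower in pennycress and 30.8% in C. sativa, so with 6 genes nothing is read from this count. ERS2 (AT1G04310), an ethylene receptor, had 99.8, 48.0 and 103 TPM in pennycress, 3.38, 2.499 and 2.67 TPM in C. sativa and 0.595, 0.689 and 1.23 TPM in B. napus. ABCG40, an importer of abscisic acid, had 31.9, 71.9 and 50.7 TPM in pennycress, 1.77, 0.874 and 1.56 TPM in C. sativa and 1.41, 0.245 and 1.12 TPM in B. napus. Pennycress stood above both other species for these genes, which overlapped each other for ABCG40. ACO4, the ACC oxidase of ethylene synthesis, was instead highest in C. sativa, at 195, 142 and 210 TPM, against 9.78, 11.97 and 10.7 TPM in B. napus, with 24.2, 67.5 and 19.4 TPM in pennycress.

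In the cuticle and lipid lists, KCS1, a fatty acid elongase of wax synthesis, was highest in C. sativa, with 83.5, 77.1 and 53.2 TPM against 3.26, 3.36 and 5.91 TPM in B. napus, and 12.4, 7.77 and 12.1 TPM in pennycress. The exporter ABCG11 was higher than in B. napus in pennycress (log2 fold change 2.23) and in C. sativa (2.03), and the cutin hydroxylase CYP86A4 was lower in both (-2.26 and -2.48). ACX3 (AT1G06290), an acyl-CoA oxidase of beta-oxidation, had 52.5, 54.5 and 48.8 TPM in pennycress, 7.03, 7.53 and 8.24 TPM in C. sativa and 9.44, 7.59 and 6.51 TPM in B. napus. The plastid pyruvate dehydrogenase subunit PDH-E1ALPHA passed in no pair of species, with log2 fold changes of 0.27, 0.23 and 0.04 for pennycress against B. napus, C. sativa against B. napus and pennycress against C. sativa. RDR1 (AT1G14790), an RNA-dependent RNA polymerase of RNA silencing, had 82.4, 68.8 and 78.3 TPM in pennycress, 5.08, 4.93 and 5.13 TPM in C. sativa and 8.41, 6.19 and 6.54 TPM in B. napus.

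**Figure D5:**
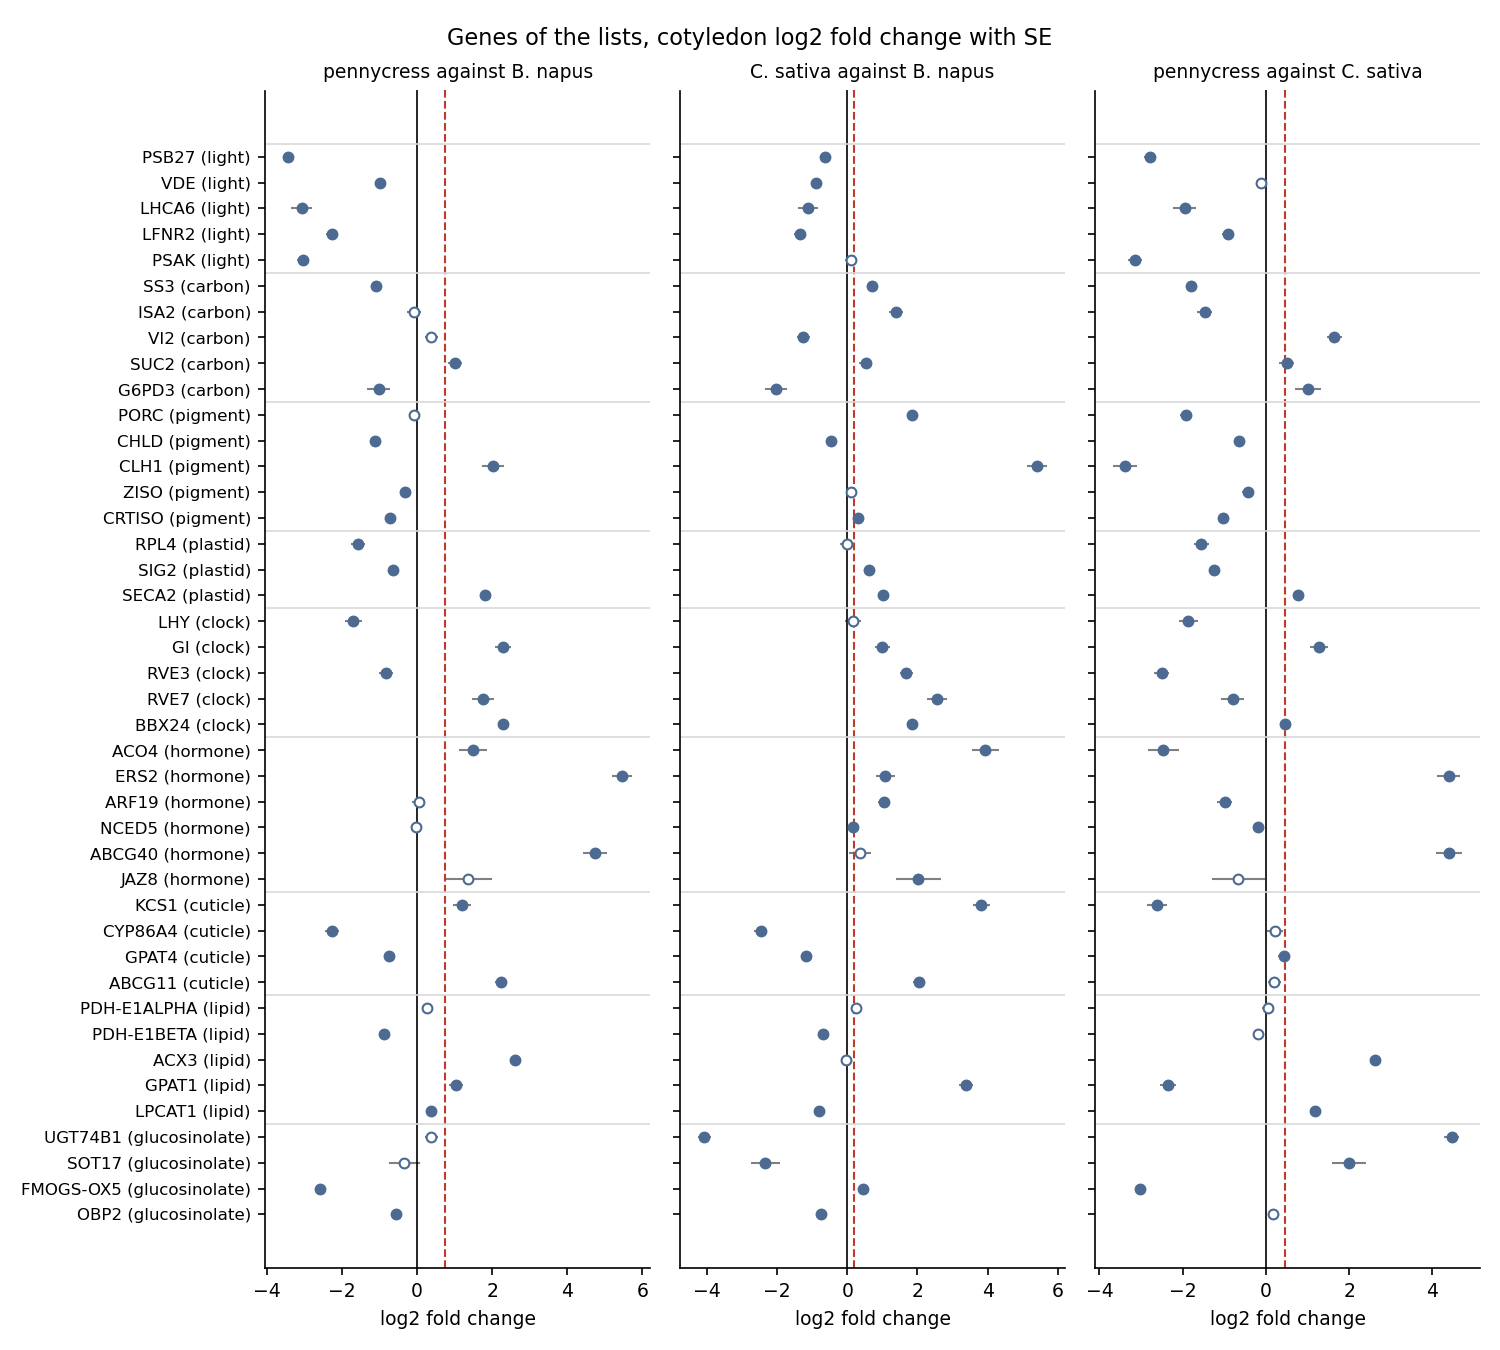
Log2 fold change (log2(TPM + 1) scale) with SE for the genes of 9 lists in each pair of species; filled points have an adjusted p under 0.05 and the dashed line is the median of all orthologs. Light genes lie left of the line in pennycress against B. napus, while ERS2 (5.46) and ABCG40 (4.75) lie far right.

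Except for RPL35A, of the ribosome list, the largest differences in pennycress were in genes outside the lists. AT1G17190, a glutathione S-transferase, had 1481, 2042 and 1340 TPM in pennycress, 76.7, 70.1 and 79.4 TPM in C. sativa and 1.04, 1.46 and 1.46 TPM in B. napus, where 1 copy was paired; the log2 fold change over B. napus was 9.43 ± 0.15 (SE, limma adjusted p = 3.28e-11). AT1G28330, a dormancy-associated gene, had 2518, 541 and 1723 TPM in pennycress, 8.14, 12.4 and 19.5 TPM in C. sativa and 4.96, 4.63 and 6.65 TPM in B. napus. Its log2 fold change for pennycress was 7.71 over DH12075 and 2.56 over N99, which had 129, 183 and 477 TPM. AT1G23130, of the Bet v 1 allergen family, was the most abundant ortholog in pennycress, at 5212, 3073 and 5373 TPM, against 63.6, 93.1 and 149 TPM in C. sativa and 323, 342 and 297 TPM in B. napus. AT1G02470 averaged 270.3 TPM in pennycress, 2.20 TPM in C. sativa and 0.703 TPM in B. napus, and AT1G06800, a phospholipase A1, averaged 74.7, 0.543 and 3.77 TPM in that order. For AT1G06800, N99 had 26.4, 17.7 and 44.7 TPM, and the log2 fold change of pennycress was 3.94 over DH12075 and 1.33 over N99. The cytosolic ribosomal protein gene RPL35A (AT1G07070) had 345, 398 and 261 TPM in pennycress, 12.2, 12.2 and 6.25 TPM in C. sativa and 0.449, 0.237 and 0.955 TPM in B. napus, where again 1 copy was paired, as for RPL34. Other copies of these ribosomal genes may lie outside the pairing, so their summed levels in B. napus are uncertain.

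Other orthologs were low in pennycress and more abundant in the other species. AT1G12090, an extensin-like cell wall gene, had 2.37, 1.70 and 3.01 TPM in pennycress, 478, 458 and 422 TPM in C. sativa and 342, 433 and 375 TPM in B. napus. AT1G14150, a subunit of the chloroplast NDH complex, had 1.26, 5.27 and 1.004 TPM in pennycress, 226, 226 and 216 TPM in C. sativa and 229, 248 and 220 TPM in B. napus. AT1G07450, a tropinone reductase homolog, had 0.0442, 0.0327 and 0.0834 TPM in pennycress, 65.1, 71.9 and 73.0 TPM in C. sativa and 103, 107 and 116 TPM in B. napus. AT1G03870, a fasciclin-like arabinogalactan protein, averaged 0.458 TPM in pennycress, 40.8 TPM in C. sativa and 125 TPM in B. napus. AT1G01190, a cytochrome P450, averaged 0.0330 TPM in pennycress, 34.7 TPM in C. sativa and 21.2 TPM in B. napus. The pennycress libraries did not overlap with those of either other species for these genes. All of them were also lower in pennycress than in N99, at -7.81 for AT1G12090, -5.44 for AT1G14150, -4.70 for AT1G07450, -5.36 for AT1G03870 and -5.55 for AT1G01190 on the log2 scale.

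Between C. sativa and B. napus the largest decrease was AT1G23800, a mitochondrial aldehyde dehydrogenase, with 1.94, 1.41 and 1.74 TPM in C. sativa and 336, 353 and 405 TPM in B. napus, and 103, 113 and 106 TPM in pennycress. AT1G11850 averaged 2.45 TPM in C. sativa and 93.8 TPM in B. napus, with 0.217 TPM in pennycress. AT1G01680 averaged 1.203 TPM in C. sativa and 39.7 TPM in B. napus, with 8.82 TPM in pennycress. The largest increases were AT1G26920, which averaged 365 TPM in C. sativa against 6.92 TPM in B. napus, with 44.8 TPM in pennycress, and AT1G02610, which averaged 72.5 TPM in C. sativa against 0.574 TPM in B. napus, with 185 TPM in pennycress. The difference for AT1G02610 was not shared by N99, which had 28.9, 49.1 and 168 TPM: C. sativa gave a log2 fold change of 5.54 over DH12075 and 0.20 over N99 (limma adjusted p = 0.734), and pennycress 6.84 and 1.4963. CLH1 and AT1G02816 (44.0 TPM in C. sativa against 0.127 TPM in B. napus, with 29.1 TPM in pennycress) completed the 4 largest.

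Among the most abundant orthologs, PSAK came first in both C. sativa and B. napus, followed by AT1G02820, a late embryogenesis abundant protein. AT1G02820 had 73.9, 166 and 60.7 TPM in pennycress, 1214, 889 and 928 TPM in C. sativa and 1972, 2276 and 1721 TPM in B. napus. It was lower in C. sativa than in DH12075 (-0.98 on the log2 scale), but did not pass against N99 (-0.15). AT1G08830, a copper/zinc superoxide dismutase, averaged 194 TPM in pennycress, 785 TPM in C. sativa and 525 TPM in B. napus. AT1G16880 averaged 257, 633 and 855 TPM in that order. In pennycress the list was completed by AT1G21680 at 836 TPM and AT1G01550 at 813 TPM, which averaged 155 and 173 TPM in C. sativa and 165 and 114 TPM in B. napus.

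Markers of other organs were checked where they could be paired, and their levels were mixed. Of the 6 seed markers, SOM alone was paired in all species, at 0.147 to 0.526 TPM in pennycress, 0.270 to 0.522 TPM in C. sativa and 0.0203 to 0.124 TPM in B. napus. The embryo regulator LEC1 was at or below 0.0271 TPM in pennycress and at 0.156 to 0.353 TPM in B. napus, and the dehydrin ERD10, also expressed outside seeds, had 516, 823 and 707 TPM in pennycress and 268, 225 and 265 TPM in C. sativa. CRU2 was at 0 TPM in B. napus cotyledons, OBAP1A at or below 0.0922 TPM in pennycress and LEC2 at 0.265 to 0.508 TPM in C. sativa. No root or flower marker was paired in all species. The root peroxidase PER3 had 0.862, 0.505 and 0.565 TPM in C. sativa and 13.3, 16.8 and 14.3 TPM in B. napus, above the median ortholog of that species, and PER7 had 3.59, 8.19 and 3.75 TPM in pennycress. In B. napus PER7 was at or below 0.0239 TPM and the root marker LRX1 at 0.164 to 0.236 TPM, and LRX1 had 0.503 to 0.791 TPM in pennycress. The flower markers SEP3, BCP1 and PGA4 were at or below 0.454 TPM where paired. The guard cell channel SLAC1 did not pass in any pair, with 3.79 to 6.57 TPM in pennycress, 5.44 to 7.49 TPM in C. sativa and 4.17 to 6.04 TPM in B. napus.

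The last comparison asked whether the species differences of cotyledons were also those of leaves. In a limma fit of 18 libraries with species, tissue and their interaction, the species difference depended on tissue for 579 of 983 orthologs (58.9%) at an adjusted p under 0.05. PSAK, for example, had 979, 1322 and 1786 TPM in pennycress leaves, against 4154, 4336 and 4022 TPM in C. sativa leaves and 3116, 2875 and 3029 TPM in B. napus leaves, with an interaction adjusted p of 0.000127 by limma. LHY had 97.7, 89.2 and 69.5 TPM in pennycress leaves, 141, 101 and 111 TPM in C. sativa leaves and 143, 147 and 136 TPM in B. napus leaves. Among these 3 lines pennycress was lowest for both genes in both tissues, but N99 cotyledons lay below pennycress for LHY. The p-values measure the spread over 3 replicates of 1 line per species, so differences between species cannot be told apart from differences between lines.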

How the data were processed

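Total RNA of cotyledons and leaves was sequenced by the authors, trimmed with Trimmomatic 0.32 and quantified with Salmon 1.10.0 against the transcriptome of each species, and gene-level TPM were deposited, 1 table per line, without read counts. Each value column was mapped to 1 library by its name. A. thaliana genes were paired with deposited IDs by searching, for each gene of the study's ortholog table, the set of up to 4 IDs whose length-weighted TPM reproduced its entry in every library; only the pairing was kept. The members and gene lists were chosen with earlier results of these data known. Gene names and roles are general knowledge of A. thaliana. No ID matched the B. napus reference gene list at hand, and no sequence was used.

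Orthologs were tested with limma 3.58.1 (R 4.3.3) on log2(TPM + 1), with trend and Benjamini-Hochberg adjustment at 0.05. Library measures were compared by exact permutation tests (Python 3.11.15, numpy 2.4.6, pandas 2.3.3). Scripts were tested on simulated data. Alternatives were another pseudocount (0.1), a filter at a mean of 1 TPM, rescaling, quantile normalisation, the most expressed copy, orthologs listed at 0 kept, N99 as the B. napus line, a replicate block, 18 libraries and leaving out each replicate. Rescaling to the same median ortholog was added after seeing the data. Named genes were the members of the lists that could be paired, the 4 orthologs most increased and most decreased per pair of species among those with at least 10 TPM in the higher species and no overlap, and the 5 most abundant orthologs and the most abundant ID of each species.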

Additional observations from a re-analysis of the deposited data

Results flagged for a closer look

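For 45 named orthologs the difference between species was not the same in cotyledons as in leaves, by the interaction test in limma with adjustment over 983 orthologs. The same test was passed by 579 of all 983 orthologs (58.9%), so passing it does not set the genes below apart. Groups of 3 libraries were too small for a test of single outlying samples. In the light list the adjusted p of the interaction was 0.0476 for PSB27, 0.000636 for VDE, 0.013 for LHCA6, 0.00017 for LFNR2 and 0.000127 for PSAK. In the carbon list it was 1.96e-06 for SS3, 0.00599 for ISA2 and 0.00244 for SUC2. Among pigment and plastid genes it was 0.00312 for CLH1, 0.000896 for CRTISO, 0.00692 for RPL4 and 0.00148 for SIG2. For ribosomal and mitochondrial genes it was 0.043 for RPL35A, 3.01e-05 for RPL34 and 0.0476 for TYKY.

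Clock genes had an interaction adjusted p of 0.00252 for LHY, 0.0142 for GI, 0.0004 for RVE3 and 9.43e-05 for RVE7. Hormone genes had 0.0118 for ACO4, 0.0443 for NCED5 and 0.000585 for ABCG40. Cuticle and lipid genes had 0.000585 for KCS1, 0.0476 for PDH-E1ALPHA, 0.0025 for GPAT1 and 0.0182 for LPCAT1. Glucosinolate genes had 6.41e-05 for FMOGS-OX5 and 7.45e-06 for OBP2, RDR1 had 0.00282 and the seed marker SOM had 0.00401.

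Among the orthologs named for the size of their difference or their abundance, the interaction adjusted p was 0.0111 for AT1G01190, 0.00353 for AT1G02470, 0.0103 for AT1G02816, 0.000435 for AT1G02820 and 3.34e-05 for AT1G03870. It was 1.97e-05 for AT1G08830, 0.00805 for AT1G11850, 2.49e-05 for AT1G12090, 0.000395 for AT1G14150 and 9.41e-05 for AT1G16880. It was 0.000485 for AT1G17190, 3.69e-05 for AT1G23130, 0.000841 for AT1G23800, 1.02e-05 for AT1G26920 and 0.0466 for AT1G28330.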

How the results depend on the processing

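Counts of orthologs past the threshold stayed within 1.5 times under all alternatives except a fold change limit: where the log2 fold change also had to reach 1 in size, 366 passed for C. sativa against B. napus and 507 for pennycress against C. sativa. Leaving out each replicate gave 824 to 856 orthologs for pennycress against B. napus, 695 to 768 for C. sativa against B. napus, 786 to 817 for pennycress against C. sativa and 526 to 615 for the dependence on tissue. Same-numbered replicates of different species deviated together with correlations of -0.184 to 0.241. These correlations carry no test, so whether the numbers pair the samples is not settled. With the replicate number as a block, 854, 738 and 804 orthologs passed and 569 depended on tissue.

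The range between the highest and lowest species mean was 27536 to 27855 genes at 1 TPM or more when a replicate was left out, 21.4 to 22 percentage points for the share of genes listed, 0.0334 to 0.0417 for evenness (0.0961 with N99, against 0.0377 with DH12075), 1.76 to 2.42 percentage points for the 10 most abundant genes and 0.0373 to 0.0559 for evenness over orthologs. Without B. napus replicate 2 the share of the 10 most abundant genes was highest in pennycress, 1.76 points above C. sativa, and without pennycress replicate 2 evenness over orthologs was highest in C. sativa, 0.0373 above B. napus. At 0.1 TPM the ranges were 39978 genes, with B. napus highest, and 17.8 points of the genes listed, with C. sativa highest. The share of the 100 most abundant genes spanned 4.83 points and that of the most abundant 1% of expressed genes 10.1 points, with other species highest or lowest. With N99 the share of the 10 most abundant genes spanned 10.6 points (exact permutation p = 0.2179), where 1 N99 library held 37.1% in these genes.

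Of 180 called differences of named genes, 32 changed direction under some alternative, 0 when a replicate was left out. In 111 of 3413 values the direction held but the threshold was missed, 40 of them on leaving out a replicate and 22 with N99. For pennycress against B. napus, rescaling over the orthologs gave LPCAT1 -0.25 and TYKY -0.27; quantile normalisation gave DCL1 -0.39, LPCAT1 -0.66 and TYKY -0.71; the same median ortholog gave DCL1 -0.40, LPCAT1 -0.78, TYKY -0.80 and SUC2 -0.15. The most expressed copy gave GPAT4 0.43, CRTISO 0.065, OBP2 0.49, SIG2 0.92, ZISO 0.60, AT1G16880 0.030 and PDH-E1BETA 0.26, and N99 gave LHY 3.15, RVE3 2.12, ACO4 -0.041, OBP2 0.87 and ZISO 0.051. For C. sativa against B. napus, the most expressed copy gave AT1G01550 -0.79 and AT1G16880 0.035, and N99 gave AT1G07450 1.37, OBP2 0.70, VI2 0.0096, AT1G16880 0.20, LHCA6 0.18, GI -0.36 and PDH-E1BETA 0.020. For pennycress against C. sativa, rescaling gave GPAT4 -0.087, BBX24 -0.10 and SUC2 -0.060; quantile normalisation gave GPAT4 -0.43 and SECA2 -0.077; the same median ortholog gave GPAT4 -0.42, BBX24 -0.47, SECA2 -0.070 and SUC2 -0.42. The most expressed copy gave AT1G02816 0.029, CHLD 0.79, SIG2 0.13, ZISO 0.64, TYKY 0.28 and RVE7 0.17. The values with N99 include its replicate 2, which was left out in none of the alternatives. The cause of these changes was not tested.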

Other observations

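The 3 N99 cotyledon libraries held 9.80%, 37.1% and 7.98% of TPM in their 10 most abundant genes, and 520, 79 and 552 genes held 50% of TPM in them. The second of these libraries had 37497 genes at 1 TPM or more, against 41124 and 41501 in the others. The paired orthologs held 1.86% of its TPM, against 2.81% and 2.82%, and this library is part of every comparison with N99 above.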
